A study of Mus musculus with 30 samples.

Results

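The fibroblasts described here were re-isolated from mouse lung organoid cultures after exposure to the exacerbation cocktail (EC) or to vehicle control. The comparison holds 7 of the 30 libraries of the series, 4 labelled EC (mice 1 to 4) and 3 labelled vehicle (mice 1, 3 and 4), all of them labelled as the cell line CCL206. Of 18091 genes tested, 66 changed with EC by more than the epithelial RNA found in the same libraries would give, and these 66 genes are the main subject.

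In each culture, Epcam+ lung cells freshly isolated from adult wild-type C57BL/6J mice (male and female), after depletion of CD31+ and CD45+ cells, were grown in Matrigel with CCL206. CCL206 is an established mouse lung fibroblast line, so all libraries share 1 line, and its division had been stopped with mitomycin C in every culture, vehicle included. Treatment lasted 72 hours, and EC combined TNFα, IL-1β, IL-6 and IL-8 (KC in the mouse), factors that are raised during an exacerbation of COPD. The cells were then separated again with Epcam microbeads, and the Epcam- cells (fibroblast libraries) and the Epcam+ cells (epithelial libraries) were each sequenced on their own. The numbering of the mice refers to the donors of the epithelial cells, so the fibroblasts differ between cultures only by culture and by partner cells. A vehicle fibroblast library of mouse 2 was not analysed here, so the EC library of mouse 2 has no pair and adds nothing to a fold change fitted with the mouse as a block.

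Fibroblasts of the lung give structural support and supply growth factors to the epithelium. They also carry receptors for IL-1β and TNFα, which act through the transcription factor NF-κB, and for IL-6, which acts through gp130 and STAT3. Secondary transcription factors of the C/EBP family extend such signals to acute phase genes, which code for secreted proteins of innate defence, and to matrix metalloproteinases, the enzymes that cut collagen and other matrix proteins. Neutrophil-attracting chemokines of the CXC family are a further classical output of both pathways.

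The fibroblast libraries held 5113828 (EC 1) to 18447405 (EC 4) counted reads, and the other 5 held 12710217 to 16439331. Levels are given as CPM, which here are counts scaled to the total of the library after adjustment of that total by edgeR's TMM factor. They therefore differ somewhat from reads divided by the plain total. Of 20 fibroblast markers, 18 were above 1 CPM in at least 1 library, while Thy1 and Tcf21 were at 0 in all 7. The summed level of the list was 16800 to 20000 CPM in vehicle and 10400 to 16500 CPM in EC libraries. Of 23 leukocyte markers, 12 exceeded 1 CPM in any library, and their sum was 44.9 to 63.8 CPM in vehicle and 42.6 to 49 CPM in EC libraries. The T and B cell markers Cd3g, Ms4a1 and Nkg7 had no reads, and none of the 17 leukocyte or 9 endothelial markers that could be tested passed the test between EC and vehicle. Endothelial markers summed to 23.3 to 27.4 CPM in vehicle and 26 to 35.8 CPM in EC libraries, and Emcn, Cldn5, Erg and Sox17 had no reads.

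Epithelial RNA was present in all 7 fibroblast libraries. All 43 genes of an epithelial reference list exceeded 1 CPM, and their sum was 8290 to 13200 CPM in vehicle and 12900 to 20300 CPM in EC libraries. For each library, the share of epithelial RNA was estimated as the median ratio of CPM between the fibroblast library and the epithelial library of the same culture (its partner), taken over the 40 or 41 genes of the list that reached 50 CPM in the epithelial library. This share was 17.1%, 14.9% and 31.2% in the vehicle libraries of mice 1, 3 and 4, and 40.7%, 38.1%, 37.2% and 59.5% in the EC libraries of mice 1 to 4. The groups did not overlap.

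**Figure D1:**
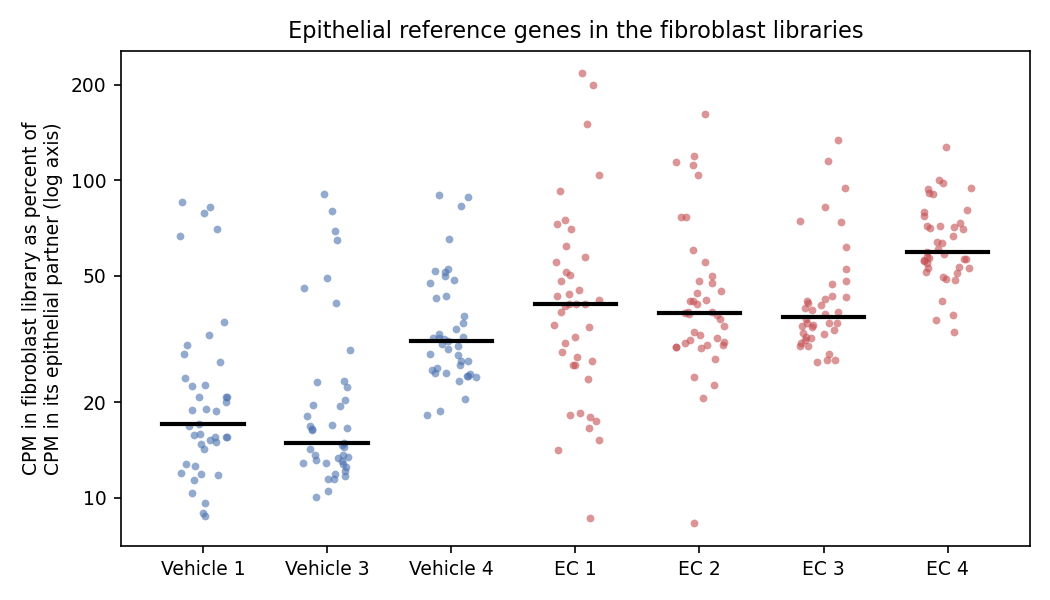
Each point is 1 epithelial reference gene, and its height is the CPM in the fibroblast library as a percent of the CPM in its epithelial partner (log axis); black bars are the medians. The medians of the 3 vehicle libraries lie between 14.9% and 31.2% and those of the 4 EC libraries between 37.2% and 59.5%, with a wide spread of single genes in every library.

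The mean share was 21.1% ± 8.83 (SD, n = 3) with vehicle and 43.9% ± 10.5 (SD, n = 4) with EC, a difference of 22.8 percent points (exact two-sided permutation test, p = 0.0571, the smallest p that 35 arrangements of the libraries allow). Within mice 1, 3 and 4 the share was higher with EC by 23.6, 22.3 and 28.3 percent points. Single reference genes spread widely around the median, from 8.75% to 85.6% in the vehicle library of mouse 1 and from 8.63% to 217% in the EC library of mouse 1. The alveolar genes Sftpc and Ager were above the median in every library, at 78.6% and 85.6% with vehicle and 200% and 217% with EC in mouse 1. Aqp5, also alveolar, was at 15.2% and 40.7% there. For a gene with ratios like those of Sftpc or Ager, the carry-over estimated from the median would be too low. Whether genes called beyond carry-over are of this kind was not tested. From Y-linked genes, the shares were 18.6% to 22.9% in vehicle and 32.2% to 46.5% in EC libraries. They parted most from the medians in mouse 4, at 18.6% against 31.2% with vehicle and 36% against 59.5% with EC. The Y-linked estimate holds only if CCL206 itself gives no Y-linked reads, which was not tested. A difference in how well the cells were separated, in the number of epithelial cells and in their RNA content cannot be told apart in these bulk libraries.

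The plain comparison of EC with vehicle, with the mouse as a block, called 1162 genes higher (6.42% of those tested) and 669 lower (3.7%) at an adjusted p under 0.05. Here and throughout, adjusted p-values are from edgeR's quasi-likelihood test with Benjamini-Hochberg adjustment over all genes tested. For every gene, the change expected if the fibroblasts had stayed at their vehicle level and only the epithelial RNA had changed was computed from the share and the partner's CPM. The genes called higher had a median log2 fold change of 0.87 against a median predicted one of 0.75, and for 896 of them (77.1%) the prediction was at least 50% of the observed change. Those called lower had a median of -0.77 against a predicted -0.46, and for 368 (55%) the prediction reached the same mark. A gene with little RNA in the partner is predicted to fall with EC, because the epithelial RNA takes a larger share of the reads.

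A second fit took this expected mixture of fibroblast and epithelial RNA as an offset, so that it tested only what remained. The mixture entered as a known value, so the SE and p-values of this fit leave out the error of the share. A gene past the threshold in both fits with the same sign is called beyond carry-over below, and its change in the second fit is called the remaining change, on the log2 scale. There were 57 such genes higher with EC (0.315% of those tested) and 9 lower (0.0497%). Of the 57, the change had the same direction in 3 of 3 mouse pairs for 54, and vehicle and EC libraries did not overlap for 43 (12.9% of all genes tested did not overlap, in either direction). For 43 of the 57, the prediction from carry-over was a fall. In 54 of the 57, all 4 EC fibroblast libraries were also above their own epithelial partner in CPM, which was so for 25.5% of all genes tested. The rule uses the partner's CPM and the difference between these same libraries, so both counts describe the members and support nothing further.

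**Figure D2:**
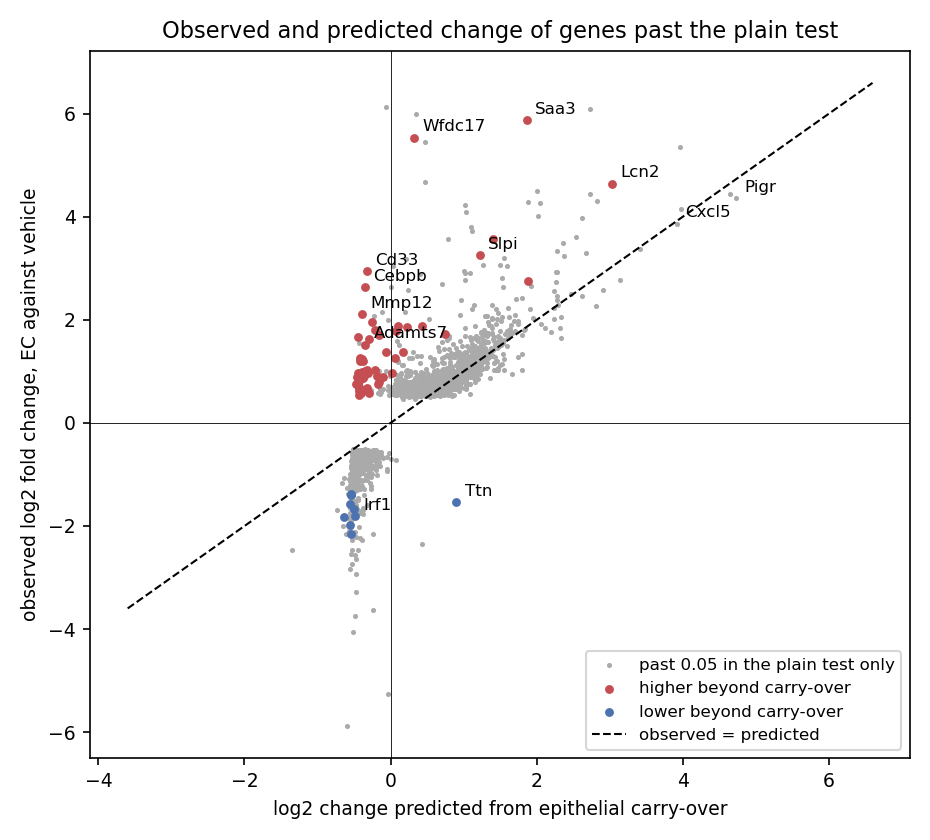
Each point is 1 of the 1831 genes past the plain test, placed by the log2 change predicted from epithelial carry-over and by the observed log2 fold change of EC against vehicle. The red genes (57, higher beyond carry-over) lie above the dashed line of equality, 43 of them left of 0 on the predicted axis, and the blue genes (9, lower) lie below it.

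Without the mouse as a block, 49 genes passed the plain test and none passed both fits (521 had an unadjusted p under 0.05 in the second fit). Without mouse 3, 8 genes remained beyond carry-over, namely Saa3, Lcn2, Slpi, Cebpb, Adamts7, Tnfrsf9 and Dcn among those higher and Egr2 among those lower. Among the fibroblast pairs, that of mouse 3 is also the only one whose sample titles differ in a suffix. Its EC library is marked R and its vehicle library is not, while the marks match within mice 1 and 4. Between a fibroblast library and its epithelial partner, the marks match only for the EC library of mouse 3. What the suffix stands for is not given in the sources used here, and its part was not tested. Without mouse 1, 54 of the 66 remained, and without mouse 4, 43. The genes at the edge of the second threshold were, just inside, Slco4a1 (remaining change 0.97, edgeR adjusted p = 0.0387), Tnxb (-1.02, 0.047) and Dkk3 (-0.85, 0.048), and just outside, Nos2 (3.05, 0.0536), Tmem238 (1.17, 0.0552) and Sod2 (0.95, 0.0554).

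Acute phase and defence genes made up the most densely represented list. Of 24 such genes tested, 11 were called higher and 1 (C4b) lower in the plain comparison, and 7 were higher beyond carry-over (Saa3, Lcn2, Slpi, Chil1, Hp, C3 and Serping1). The median log2 fold change of the list was 0.90, the predicted one -0.15 and the remaining one 0.69, against a median remaining change of -0.01 over all genes tested.

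Saa3 codes for serum amyloid A3, an acute phase protein made outside the liver. It was at 0.999, 1.26 and 2.9 CPM in the vehicle libraries of mice 1, 3 and 4 and at 262.8, 84.1, 52.5 and 71.8 CPM in the EC libraries of mice 1 to 4. All EC libraries lay far above all vehicle libraries, with mouse 1 highest, and all were above their epithelial partners (5.84 to 24.4 CPM). The log2 fold change was 5.88 (SE 0.26), the predicted one 1.86 and the remaining one 3.98 (SE 0.43, edgeR adjusted p = 9.24e-07). Carry-over was estimated to supply 1.74% to 20.2% of the Saa3 reads in EC libraries.

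Lcn2 codes for lipocalin 2, which withholds iron from bacteria by binding their siderophores. Its level was 10.1, 12.3 and 13 CPM with vehicle and 371, 342.7, 255.8 and 272.7 CPM with EC, with no overlap. Epithelial cells responded as well, with a partner level of 182.7 to 281.6 CPM with EC, so the prediction accounted for 3.03 of a log2 fold change of 4.65 (SE 0.22). All 4 EC libraries were above their partners. What remained was 1.62 (SE 0.22, edgeR adjusted p = 4e-05).

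Slpi, an inhibitor of neutrophil elastase, rose from 14.8, 9.19 and 14.6 CPM with vehicle to 268.3, 101.6, 75.5 and 86.5 CPM with EC. The EC library of mouse 1 stood apart, but the groups were separate without it. The remaining change was 2.04 (SE 0.27, edgeR adjusted p = 3.06e-05).

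C3, the central component of complement, was already abundant with vehicle (1002, 993 and 1122 CPM) and reached 1548, 2825, 2654 and 2255 CPM with EC. Its partners held 426.7 to 679.3 CPM with EC, and since dilution predicted a fall (-0.21), the remaining change (1.23, SE 0.20) exceeded the observed one (1.02, SE 0.17). Serping1, the inhibitor of the first complement component, rose from 21.7 to 22.4 CPM to 35.6 to 48 CPM and had a remaining change of 1.31 (SE 0.22). The complement proteases C1rb (remaining change 2.20, SE 0.48) and C1s2 (1.24, SE 0.25) were beyond carry-over too, from mean levels of 0.834 and 10.9 CPM with vehicle. They are near copies of C1ra and C1s1, and how the counting shared reads between such copies is not given in the sources used here.

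Hp, which codes for haptoglobin, and Chil1, which codes for a chitinase-like protein, lay closer to what carry-over gives. In each, only 1 of 4 EC libraries was above its partner, and the remaining changes were 0.98 (SE 0.22, edgeR adjusted p = 0.0251) and 0.87 (SE 0.20, edgeR adjusted p = 0.0326). Neither passed with the upper quartile of the reference ratios as the share. Pigr, the receptor that carries IgA across epithelium, had a log2 fold change of 4.36 and a predicted one of 4.74. For lactoferrin (Ltf) the values were 2.28 and 2.81. Other members exceeded their predictions without passing, such as Cp (0.78 against 0.08, edgeR adjusted p of the remaining change = 0.126) and C1s1 (0.35 against -0.46, 0.0507). In the second fit, 11 of the 24 had an unadjusted edgeR p under 0.05 upward and 2 downward, against 2.98% and 1.35% of all genes tested.

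The 250 bases before the RefSeq start sites of Saa3, Lcn2, Slpi and C3, chosen after their values were seen, are shown because the transcription factors Cebpb and Cebpd were themselves among the genes beyond carry-over. Capitals mark matches to the C/EBP letters TTNNGNAA on either strand, sequences run 5′ to 3′ on the gene's strand, and the build of the table is GRCm38.p6. The windows are chr7:46715677-46715926 for Saa3, chr2:32387740-32387989 for Lcn2, chr2:164356508-164356757 for Slpi and chr17:57228137-57228386 for C3, all on the minus strand.
Saa3: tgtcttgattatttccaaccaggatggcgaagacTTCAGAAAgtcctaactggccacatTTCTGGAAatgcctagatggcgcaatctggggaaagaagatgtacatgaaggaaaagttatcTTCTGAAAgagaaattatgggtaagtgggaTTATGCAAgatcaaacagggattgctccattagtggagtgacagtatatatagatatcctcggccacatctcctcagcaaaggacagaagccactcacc
Lcn2: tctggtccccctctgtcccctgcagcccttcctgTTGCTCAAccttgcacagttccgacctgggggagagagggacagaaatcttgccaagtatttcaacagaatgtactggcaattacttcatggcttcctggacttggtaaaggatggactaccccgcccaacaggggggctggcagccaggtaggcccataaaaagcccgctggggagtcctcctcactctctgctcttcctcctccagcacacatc
Slpi: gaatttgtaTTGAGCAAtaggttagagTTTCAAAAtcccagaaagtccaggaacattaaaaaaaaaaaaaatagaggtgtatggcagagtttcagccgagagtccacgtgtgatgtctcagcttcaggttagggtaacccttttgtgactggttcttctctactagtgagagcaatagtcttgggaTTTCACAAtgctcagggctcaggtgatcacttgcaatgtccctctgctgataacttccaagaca
C3: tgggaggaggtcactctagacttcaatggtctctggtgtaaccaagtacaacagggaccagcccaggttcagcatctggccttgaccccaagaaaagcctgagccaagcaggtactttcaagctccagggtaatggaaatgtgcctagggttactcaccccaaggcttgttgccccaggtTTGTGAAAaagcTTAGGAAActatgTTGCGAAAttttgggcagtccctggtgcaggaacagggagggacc
Matches numbered 4 in Saa3, 1 in Lcn2, 3 in Slpi and 3 in C3. The NF-κB consensus motif (searched on both strands, overlap between the motifs allowed) had no match in these 4 windows, while the promoter of Chil1, not printed, held 1 match to each motif. Over all 32851 promoters of the table, 36.8% held the C/EBP letters and 3.9% the NF-κB consensus. Of 49 promoters listed for 40 of the 57 genes higher beyond carry-over, 26 (53.1%) and 5 (10.2%) did. A match describes letters and not binding.

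Cebpb and Cebpd, which code for C/EBPβ and C/EBPδ, were the 2 of 21 IL-6 and STAT3 signalling genes beyond carry-over. Cebpd was at 42.9, 39.9 and 61.2 CPM with vehicle and at 122.7, 75.5, 73.2 and 75.7 CPM with EC, without overlap. Its remaining change was 1.00 (SE 0.22, edgeR adjusted p = 0.0221). Cebpb was at 8.3, 9.78 and 274.4 CPM with vehicle and at 116.4, 177.1, 176.5 and 227.2 CPM with EC. The vehicle library of mouse 4 was above every EC library, so only 2 of 3 pairs rose, and the fitted remaining change of 2.98 (SE 0.44) rests on mice 1 and 3. With DESeq2, Cebpb did not pass the plain comparison (adjusted p = 0.0957). The other members of the list, Socs3 and Stat3 among them, were not beyond carry-over, and the list's median remaining change was 0.06.

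Matrix-degrading enzymes formed the next group. Of 32 proteases and inhibitors tested, 5 were called higher and 8 lower, and Mmp3, Mmp10, Mmp12 and Mmp13 were higher beyond carry-over. Mmp10 (stromelysin 2) rose from 2.92, 3.93 and 3.59 CPM with vehicle to 13.1, 7.78, 14.9 and 9.39 CPM with EC. Mmp12 (macrophage elastase) rose from 1.46, 0.889 and 1.2 CPM to 5.92, 4.06, 4.09 and 5.26 CPM, and Mmp13 (collagenase 3) from 1.84, 3.34 and 1.57 CPM to 12.3, 8.27, 6.52 and 5.59 CPM. All 3 genes were low, but no EC library fell into the vehicle range, and the epithelial partners held at most 2.48 CPM of any of them. The remaining changes were 2.03 (SE 0.31) for Mmp10, 2.49 (SE 0.41) for Mmp12 and 1.73 (SE 0.35) for Mmp13. Mmp3 (stromelysin 1) changed less, from 17.7 to 23 CPM to 23.5 to 54.1 CPM, and did not pass without mouse 1 in the plain comparison (log2 fold change 0.42, edgeR adjusted p = 0.232). It was not beyond carry-over without mouse 1, without mouse 3 or without mouse 4.

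Adamts7, a secreted protease that cuts cartilage oligomeric matrix protein, had 36.6, 35.4 and 63.6 CPM with vehicle and 89.4, 144.4, 160.1 and 137 CPM with EC. Its partners held 7.75 to 19.2 CPM, dilution predicted a fall, and the remaining change was 1.87 (SE 0.22, edgeR adjusted p = 3.77e-06). Among inhibitors, Timp3 had a log2 fold change of -1.15 against a predicted -0.54, and the remaining -0.62 (SE 0.19) did not pass (edgeR adjusted p = 0.305).

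Of 32 elastic fibre and matrix genes, 3 were called higher and 9 lower, and Lox and Dcn were higher beyond carry-over. Lox, the enzyme that crosslinks collagen and elastin, rose from 102.2, 118.5 and 84.8 CPM with vehicle to 189.3, 228.1, 238.7 and 184.4 CPM with EC. Dcn, which codes for the collagen-binding proteoglycan decorin, rose from 154.6, 186.7 and 128.4 CPM to 389.6, 313.3, 289.7 and 249.5 CPM. Both had separate groups, with remaining changes of 1.36 (SE 0.20) for Lox and 1.34 (SE 0.20) for Dcn. Dcn also remained without each mouse in turn, while Lox was lost without mouse 3.

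Of 27 collagens, the main fibrous proteins of the matrix, none was called higher and 14 were called lower, with a median log2 fold change of -0.65 against a predicted -0.48, and none was beyond carry-over. Col1a1 was at 1364, 1201 and 1369 CPM with vehicle and 863.4, 1047, 1247 and 861.1 CPM with EC, a remaining change of 0.08. The contractile genes were similar, with 5 of 19 called lower, among them Acta2 (smooth muscle actin, log2 fold change -0.61, predicted -0.46), and none beyond carry-over.

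**Figure D3:**
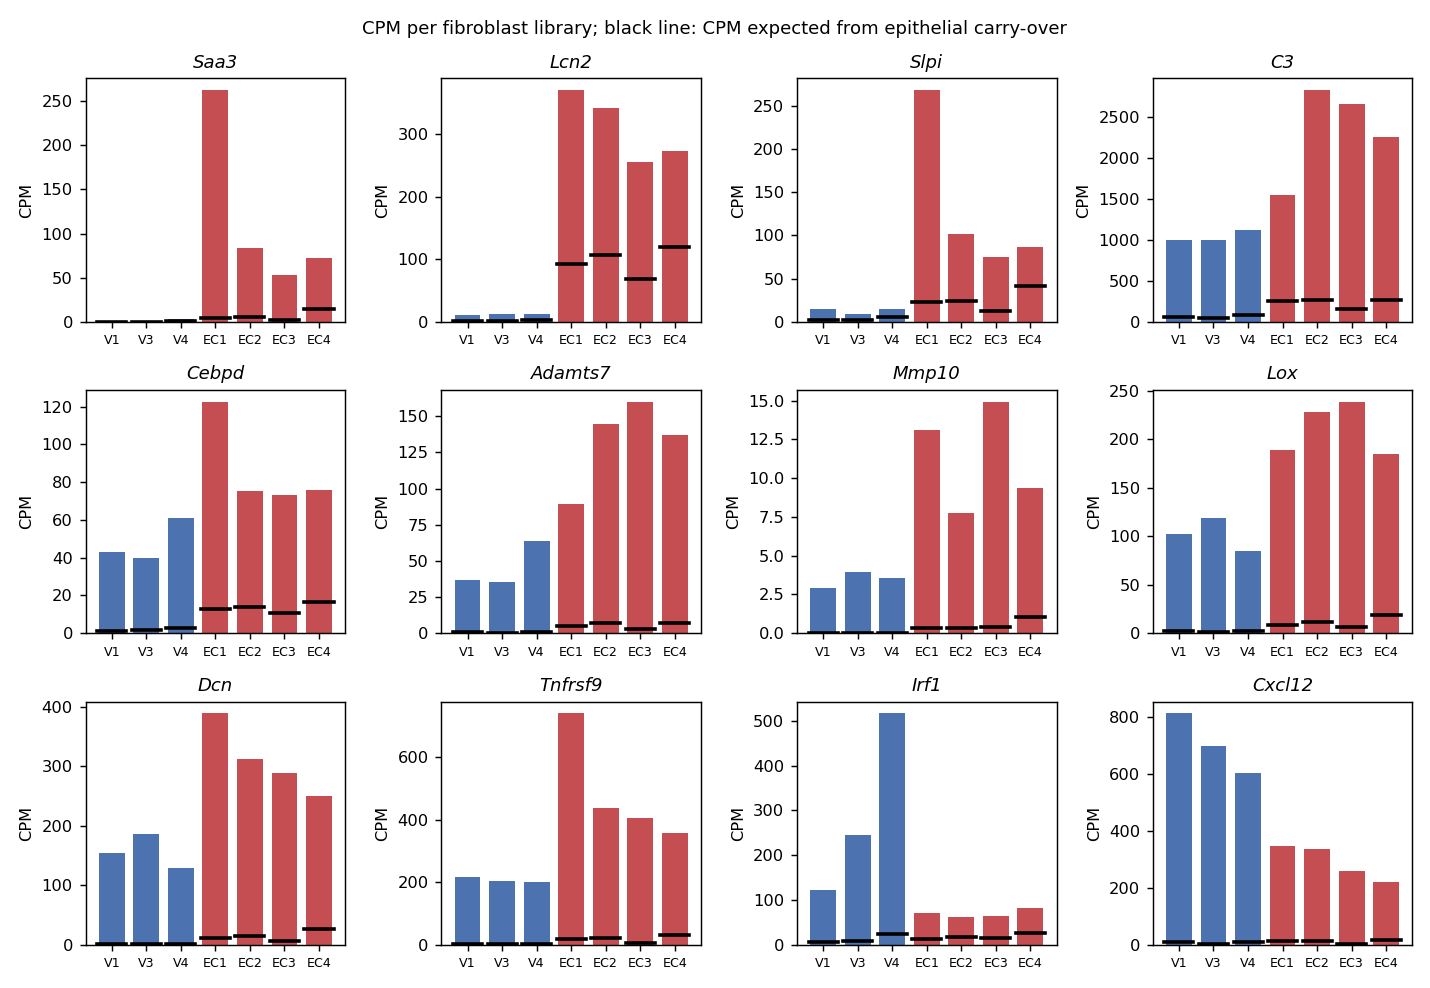
Bars give the CPM in each of the 7 fibroblast libraries (blue, vehicle of mice 1, 3 and 4; red, EC of mice 1 to 4) for 12 genes beyond carry-over, each on its own axis from 0, and the black line gives the CPM that carry-over from the epithelial partner would supply. For the 10 genes higher with EC, the lines stay well below the red bars (119 of 272.7 CPM for Lcn2 in EC 4, for example), and for Irf1 and Cxcl12 the red bars are below all blue ones.

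Several genes that rose code for surface proteins known from leukocytes. Tnfrsf9 (the receptor 4-1BB) was at 218.2, 203.3 and 200.6 CPM with vehicle and at 740.5, 435.8, 406.3 and 356.4 CPM with EC, and its remaining change was 1.58 (SE 0.21, edgeR adjusted p = 3.05e-05). Cd33 rose from 0.126 to 0.667 CPM to 2.87 to 4.09 CPM, Lilr4b from 3.15 to 4.37 CPM to 6.13 to 18.6 CPM, and Cd177 from 4.15 to 8.22 CPM to 17.6 to 23.7 CPM. Wfdc17, a secreted protease inhibitor known from macrophages, had 1, 0 and 1 reads with vehicle and 0.701 to 5.07 CPM with EC. Of the 20 leukocyte markers with reads, 14 were highest in a vehicle library and 6 in an EC library. Most of the 14 were highest in the vehicle library of mouse 1 and none in that of mouse 3, so the count largely reflects 1 library. The pan-leukocyte marker Ptprc was at 0.0741 to 1.08 CPM with vehicle and 0 to 0.305 CPM with EC, Lcp2 at 0 to 0.0741 and 0 to 1.06 CPM, and Mrc1 at 1.01 to 3.3 and 1.48 to 4.81 CPM. The part of leukocyte RNA in these genes was not tested.

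Further genes beyond carry-over with a low adjusted p in the plain comparison have varied roles. Ivl (involucrin, a protein of the cornified envelope) rose from 7.99, 8.52 and 6.48 CPM with vehicle to 29.8, 34.8, 33.1 and 21.9 CPM with EC, with a remaining change of 1.65 (SE 0.24, edgeR adjusted p = 0.000103). Its partners held 9.72 to 11.8 CPM with EC, below every EC fibroblast library. Syt7, a calcium sensor of vesicle release, rose from 15.9 to 22.6 CPM to 38.7 to 54.2 CPM (remaining change 1.44, SE 0.22). Stc1 (stanniocalcin 1) rose from 2.58 to 3.93 CPM to 7.88 to 15 CPM (1.78, SE 0.30).

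Fam162a and Olfm4 rose most in mouse 1. Fam162a was at 94.4, 48.8 and 50.9 CPM with vehicle and 370.8, 118.5, 113.3 and 98.7 CPM with EC (remaining change 1.22, SE 0.23). Olfm4 (olfactomedin 4) was at 0.384 to 0.593 CPM with vehicle and 4.53 to 10.4 CPM with EC (2.17, SE 0.46). The uncharacterized gene 1110008P14Rik rose from 15.6 to 21.3 CPM to 33 to 57.3 CPM (1.21, SE 0.22).

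Of 22 redox and metal genes, 8 were called higher and 1 lower, and Slc7a2 (a transporter of arginine) and Mt2 (metallothionein 2) were beyond carry-over, with remaining changes of 1.34 (SE 0.22) and 0.94 (SE 0.20). For Nos2, the inducible nitric oxide synthase, which uses arginine, the CPM was 0, 0 and 1.01 with vehicle and 2.54, 5.53, 3.6 and 1.9 with EC, and it missed the threshold of the second fit (edgeR adjusted p = 0.0536). In the Wnt and BMP list of 33 genes, the secreted Wnt modulator Dkk3 was lower beyond carry-over. In the Hedgehog list of 16, the co-receptor Gas1 was higher (1.31, SE 0.21), and the other 2 genes called, both lower, were not beyond carry-over.

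All 9 genes lower beyond carry-over moved in the same direction in 3 of 3 pairs, and 7 had separate groups (12.9% of all genes tested did, in either direction). The 9 were chosen by the difference between these same libraries, so both counts only describe them. Irf1, a transcription factor of interferon and TNF responses, was at 122.8, 244 and 516.9 CPM with vehicle and at 71.4, 62.5, 63.7 and 82.7 CPM with EC. Its vehicle level varied over 4-fold between mice and its EC level little, and the remaining change was -1.31 (SE 0.24, edgeR adjusted p = 0.00166). Among 31 interferon-stimulated genes, 9 were called lower and 1 higher, with a median log2 fold change of -0.52 against a predicted -0.28, and Irf1 was the only one beyond carry-over. For Gbp5, a guanylate-binding protein, the CPM was 0.461, 1.63 and 10.8 with vehicle and 0, 0.56, 0.61 and 0.783 with EC (edgeR adjusted p of the remaining change = 0.12).

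Cxcl12, the chemokine that retains CXCR4-bearing cells, was at 814.9, 700.7 and 605.1 CPM with vehicle and at 347.5, 337.3, 260 and 219.6 CPM with EC. The observed log2 fold change was -1.37 (SE 0.18), the predicted one -0.54 and the remaining one -0.83 (SE 0.19, edgeR adjusted p = 0.0331). Dkk3 followed it closely, with 127.5, 141.9 and 123.6 CPM with vehicle and 60.6, 60.9, 53.4 and 38.4 CPM with EC (-0.85, SE 0.20). With the 90th percentile of the reference ratios as the share, the remaining changes of Cxcl12 (0.18), Dkk3 (0.16) and Tnxb (0.02) turned positive and none passed. Ptn, which codes for the growth factor pleiotrophin, was at 32.3, 21.3 and 19.9 CPM with vehicle and at 14.8, 7.15, 5.98 and 4.81 CPM with EC (-1.18, SE 0.26, edgeR adjusted p = 0.0177). With the upper quartile of the reference ratios as the share, 2 of the 9 lower genes (Irf1 and Ttn) were beyond carry-over, against 54 of the 57 higher ones.

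The other lower genes were Egr2, an immediate early transcription factor (remaining change -1.42, SE 0.30), Tnxb, which codes for the matrix protein tenascin X (-1.02, SE 0.24), Adamtsl3 (-1.61, SE 0.37), Hc, which codes for complement C5 (-1.19, SE 0.27), and Ttn. Egr2 was at 11.7, 18 and 34.1 CPM with vehicle and at 3.59, 16.4, 8.48 and 3.91 CPM with EC, so the groups overlapped through mouse 2. Ttn (titin) passed the plain comparison (log2 fold change -1.54, edgeR adjusted p = 0.0169), but its remaining change of -3.07 (SE 0.55) was set largely by its partners. It was at 13.6, 1.04 and 0.566 CPM with vehicle and at 5.7, 0.35, 0.305 and 0.112 CPM with EC, while the partners of the EC libraries held 65.8, 39.9, 6.08 and 2.84 CPM, so that carry-over was estimated at 470% to 4340% of the reads found.

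Of the receptors for the cocktail, 8 were tested, and only Tnfrsf1b (TNF receptor 2) was called in the plain comparison. It was at 57.5, 48.5 and 85 CPM with vehicle and 85.5 to 94.8 CPM with EC (log2 fold change 0.60, edgeR adjusted p = 0.0201), but the remaining change of 0.34 did not pass. Il1r1, the signalling receptor for IL-1β, was at 49.1, 57.6 and 52.7 CPM with vehicle and 41.4, 53.7, 46.6 and 47.4 CPM with EC, with overlap. Il1r1, Il6st (the shared chain gp130) and Tnfrsf1a (TNF receptor 1) had log2 fold changes of -0.24, -0.36 and -0.22, none past the test. Cxcr2, the receptor for KC, and Cxcr1 were too low to be tested.

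Of 26 regulators of NF-κB, which carry or dampen its signal, 2 were called higher and 5 lower, and none passed both fits (3 had an unadjusted p under 0.05 in the second fit upward and 1 downward, against 2.98% and 1.35% of all genes tested). Tnip3 had the largest rise, with a log2 fold change of 2.47 and a predicted one of 2.28. Tnfaip3, which codes for the feedback inhibitor A20, was at 67.8, 274.1 and 459.3 CPM with vehicle and at 59.8, 128.6, 125 and 98 CPM with EC (remaining change -0.73, SE 0.23, edgeR adjusted p = 0.335).

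For CXC chemokines, 5 of 13 were called higher and 3 lower, and only Cxcl12 was beyond carry-over. Cxcl5, a neutrophil attractant, was at 21.5, 40.8 and 64.1 CPM with vehicle and at 785.1, 404.9, 396.4 and 607.2 CPM with EC. Its partners held 1075 to 1875 CPM with EC, the predicted log2 fold change was 3.92 and the observed one 3.87 (SE 0.21), so the remaining one was -0.05 (SE 0.27). Cxcl3 was alike (observed 4.15, predicted 3.97). For Cxcl1, which codes for KC itself, the level was 47.1, 194.5 and 480.1 CPM with vehicle and 179.4, 179.1, 130.5 and 143 CPM with EC, with overlap.

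Among 22 cytokines and colony-stimulating factors, 2 were called higher and 1 lower, and none was beyond carry-over (1 had an unadjusted p under 0.05 in each direction in the second fit). Il6 was at 1.54, 2.52 and 4.09 CPM with vehicle and at 1.48, 6.09, 4.57 and 2.13 CPM with EC. Csf3, which codes for G-CSF, had 0, 0.148 and 1.38 CPM with vehicle and 3.17, 9.95, 5.85 and 4.81 CPM with EC, with a remaining change of 0.94 (SE 0.57). Also without a gene beyond carry-over were the lists of CC chemokines (12 tested), leukocyte adhesion (12), prostaglandins (15), MHC class I (18), p53 targets (22) and the unfolded protein response (23).

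**Figure D4:**
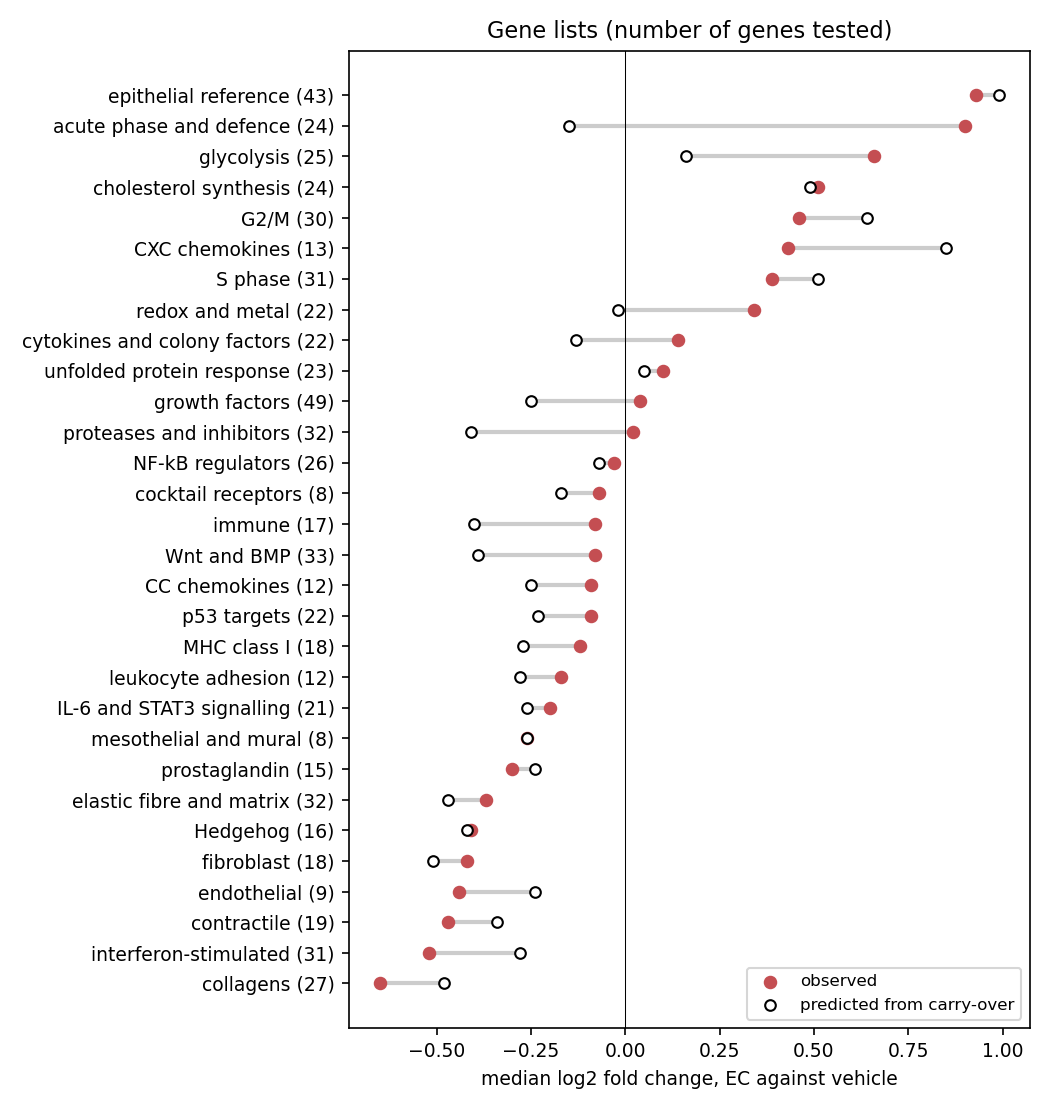
For each gene list (number of genes tested in parentheses), the filled point is the median observed log2 fold change of EC against vehicle and the open point the median predicted from epithelial carry-over. The distance between them is widest for acute phase and defence genes (0.90 against -0.15), while cholesterol synthesis (0.51 against 0.49) and the epithelial reference (0.93 against 0.99) nearly coincide.

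Lists of dividing cells and metabolism rose in the plain comparison about as far as carry-over gives. Of 30 G2/M genes, 10 were called higher, with a median log2 fold change of 0.46 and a predicted 0.64, and of 31 S phase genes 5 were called higher (0.39 and 0.51). Of 24 cholesterol synthesis genes, 10 were called higher (0.51 and 0.49). None of these genes was beyond carry-over, nor had any an unadjusted p under 0.05 in the second fit. Glycolysis differed in size: 14 of 25 genes were called higher, with a median of 0.66 against a predicted 0.16, and 8 had an unadjusted p under 0.05 upward in the second fit (2.98% of all genes tested did), but none passed after adjustment. The glucose transporter Slc2a1 came closest, with 236.2, 220.3 and 248.7 CPM with vehicle and 421.5, 393.7, 431.1 and 395.1 CPM with EC (remaining change 0.75, SE 0.19, edgeR adjusted p = 0.0915).

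The study picked 6 growth factors (Areg, Artn, Il33, Pthlh, Ptn and Tgfa) from genes that changed in these same libraries, so that their direction in the plain comparison is not independent evidence. Of the 6, 5 were called higher and Ptn lower, and only Ptn was beyond carry-over. In Il33, which codes for an alarmin cytokine, the vehicle libraries held 33.3, 34.7 and 32.8 CPM and the EC libraries 116, 142.3, 105 and 171.5 CPM. Its partners held 296.9 to 425 CPM with EC, and the predicted log2 fold change of 2.06 was above the observed 1.93 (SE 0.19).

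Areg (amphiregulin) and Tgfa, ligands of the EGF receptor, had observed log2 fold changes of 1.31 (SE 0.19) and 1.21 (SE 0.23) against predicted ones of 1.25 and 1.14. Their remaining changes were 0.06 (SE 0.21) and 0.08 (SE 0.26). Areg was at 35, 31.8 and 43.7 CPM with vehicle and at 93, 71.9, 73.5 and 108.5 CPM with EC, and Tgfa at 6.07, 7.41 and 12.8 CPM with vehicle and at 10.6, 22.1, 20.3 and 31.2 CPM with EC. Artn (artemin) had an observed 1.72 (SE 0.28) against 1.28, and Pthlh (parathyroid hormone-related protein) 2.41 (SE 0.28) against 1.71. The remaining change of Pthlh, 0.72 (SE 0.29), did not pass (edgeR adjusted p = 0.881). Its estimated carry-over was 119% to 167% of the reads found in EC libraries, and that of Tgfa 75.2% to 216%, so a change within the fibroblasts was not detectable for these genes with this estimate.

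**Figure D5:**
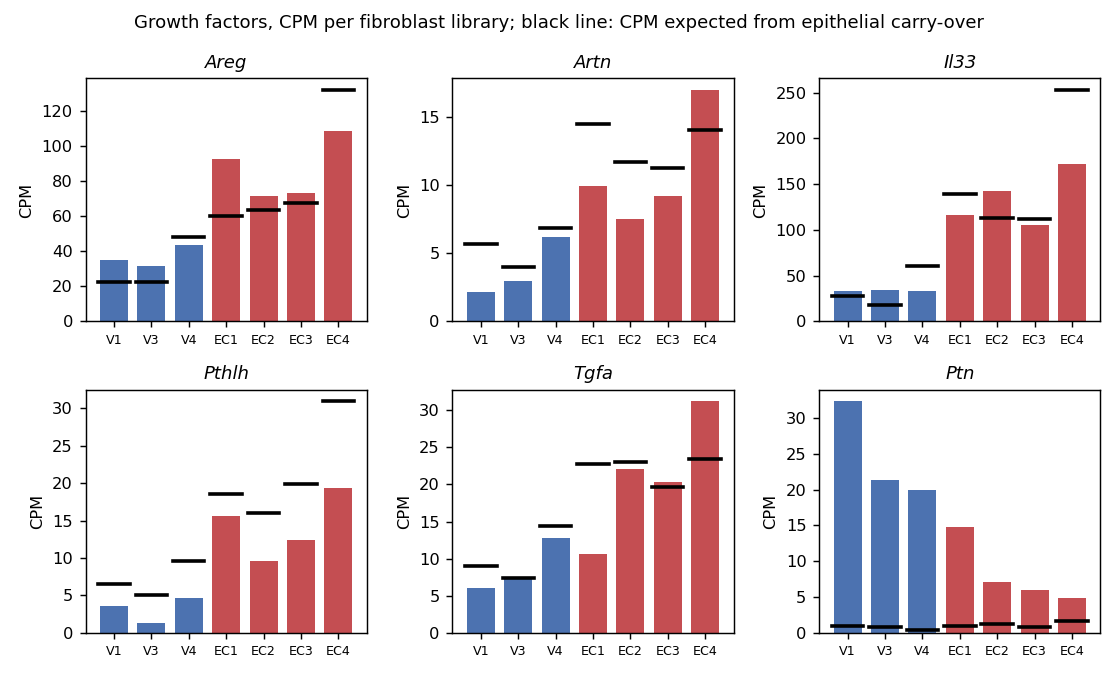
Bars give the CPM of the 6 growth factors in each fibroblast library (blue, vehicle; red, EC), each on its own axis from 0, and the black line gives the CPM expected from the epithelial partner. In EC libraries the lines lie at 64.7% to 216% of the bars for Areg, Artn, Il33, Pthlh and Tgfa, and in vehicle libraries at 52.4% (Il33) to 377% (Pthlh). For Ptn they stay at 34% or less.

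Among the other growth factors, Pdgfa, a ligand of the PDGF receptors, was the 1 of 49 that was higher beyond carry-over. It was at 70.4, 46.1 and 54.8 CPM with vehicle and at 204.7, 73.1, 82.2 and 70.3 CPM with EC, so that the EC library of mouse 1 was highest and that of mouse 4 overlapped the vehicle range. The remaining change was 1.09 (SE 0.22, edgeR adjusted p = 0.0101).

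Finally, the response of the fibroblast libraries was set against that of the epithelial libraries of the same mice by an interaction term, without correction for carry-over in either fraction. Over 18199 genes tested, the difference was above 0 for 656 (3.6%) and below 0 for 264 (1.45%), and among the 66 genes it was above 0 for 5 and below 0 for 9. Hp rose in fibroblast libraries and had a log2 fold change of 0.26 in epithelial ones (difference 1.43, SE 0.23, edgeR adjusted p = 0.00144). Slpi rose in both and more in fibroblast libraries (difference 1.42, edgeR adjusted p = 0.00958), and the differences for Ivl, Syt7 and 1110008P14Rik were 1.37, 1.29 and 1.09. Irf1 fell in fibroblast libraries and had a log2 fold change of -0.38 in epithelial ones (difference -1.46, edgeR adjusted p = 0.0139).

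For Dcn, Pi15 and Mmp10 the difference was below 0, and the epithelial libraries showed the larger fold, from a low level. Dcn was at 6.25 to 9.4 CPM in the epithelial partners with vehicle and at 16.8 to 44.8 CPM in those with EC, against 128.4 CPM or more in every fibroblast library. RNA of the fibroblasts in the epithelial libraries was not subtracted from these values. Of the 57 higher genes, 55 could be tested in epithelial libraries, where 30 were called higher and none lower. The share of all genes called in the epithelial libraries is not given here, so this count describes the members only.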

How the data were processed

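Libraries were grouped by GEO's labels. Per the labels and the study's methods, reads were trimmed with Trimmomatic (0.30) and aligned, and the deposited files hold raw counts per gene made by the authors, of which the third count column was used. The methods name GRCm38 and the labels GRCm39. The strand setting of the counting is not given in the sources used here.

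Of 55487 genes, those with a mean count of at least 1 were tested with edgeR (4.0.16; R 4.3.3), using TMM, the quasi-likelihood test and a mouse block. Pairing came from the mouse numbers in the labels: deviations of same-mouse libraries correlated at 0.299 to 0.686. With 2 residual degrees of freedom, edgeR set the prior degrees of freedom of the plain fit to infinity, so its p-values rest on the dispersion trend and may be too small. The spread that enters the fits is what the mouse block leaves between cultures of 1 fibroblast line, and in the plain fit it is taken from the trend over genes.

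The second fit used as offset (1 - s)F + sE + 0.1 CPM, where s is the epithelial share, E the partner's CPM and F the vehicle fibroblast level after subtraction of carry-over. The remaining change is therefore on the scale of the mixture. All of these entered as fixed values, and F came from the same vehicle libraries. The SE and adjusted p of a remaining change thus omit their error and may be too small. DESeq2 (1.42.0) was an alternative. Scripts were tested on simulated data.

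Named genes were the study's 6 growth factors, up to 12 genes in each direction beyond carry-over with the smallest adjusted p in the plain fit (absolute log2 fold change over 1, 3 of 3 pairs), the 5 in each direction called in the plain fit only, and leading members of each list. Other genes beyond carry-over were named after their values were seen. Members and lists were chosen with earlier results of these data known. The values of 1 gene are not reported here.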

Additional observations from a re-analysis of the deposited data

Results flagged for a closer look

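In 7 of 59 groups of 4 EC fibroblast libraries tested by Dixon's criterion, 1 library stood apart from the others, where chance alone gives about 5 percent of independent groups. In each case it was the EC library of mouse 1, which also had the fewest reads (5113828). The ratio of its gap to the whole range was 0.85 for Saa3, 0.865 for Slpi, 0.888 for Olfm4, 0.927 for Fam162a, 0.911 for Pdgfa, 0.95 for Cebpd and 0.957 for Ttn. Its CPM was 262.8 for Saa3, 268.3 for Slpi, 10.4 for Olfm4, 370.8 for Fam162a, 204.7 for Pdgfa, 122.7 for Cebpd and 5.7 for Ttn, in each gene the highest of the EC libraries. Whether depth had a part in this was not tested. The 59 groups are genes read in the same 4 libraries, many of them picked by their EC change. They are not independent, so 7 of 59 cannot be read as an excess over 5 percent.

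The response to EC differed between fibroblast and epithelial libraries, by the interaction term, for 14 of the 66 genes beyond carry-over. On the log2 scale, fibroblast minus epithelial, the difference was 1.42 for Slpi, 1.43 for Hp, 1.37 for Ivl, 1.29 for Syt7 and 1.09 for 1110008P14Rik. It was -1.46 for Irf1, -0.83 for Cxcl12, -0.92 for Dkk3, -2.95 for Mmp10, -1.1 for Dcn, -1.26 for Pi15, -1.17 for Calcrl, -4.03 for Ttn and -0.98 for Npy1r. Neither fraction was corrected for RNA of the other.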

How the results depend on the processing

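The plain comparison called 1831 genes, against 49 with no replicate block, 1165 with DESeq2 (1156 shared) and 1154 with edgeR's filterByExpr, and 546 to 1835 when 1 mouse was left out. The 66 genes beyond carry-over became 0 with no replicate block (521 at an unadjusted p under 0.05 in edgeR), 0 after subtraction of the carry-over counts (358 at an unadjusted p under 0.05), 23 with filterByExpr, 100 with shares from Y-linked genes, and 8 to 89 with 1 mouse left out. They numbered 53 to 94 with DESeq2 size factors, no filter, robust estimation, the upper quartile share, a prior of 1 CPM and DESeq2 with the expected mixture. With the 90th percentile of the reference ratios as the share, they numbered 126, and Cxcl12 (0.18), Tnxb (0.02) and Dkk3 (0.16) changed sign. That alternative and DESeq2 with the expected mixture were chosen after seeing the data. None of the 66 held in every alternative, since 2 of them gave no calls. The 920 genes that differed between fractions became 4 with no replicate block and 1431 with no filter, and 418 to 1164 with 1 mouse left out. The difference in epithelial share was 21.9 to 24.7 percent points with 1 mouse left out. Depth limits the genes under about 1 CPM, mostly in the EC library of mouse 1.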
